A study of Mus musculus with 12 samples.

Results

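The apical piece of the newborn mouse cochlea was compared with the middle piece of the same cochleae, which is the apical step of the tonotopic axis at birth. The difference was taken between 4 of the 12 microarrays of the study, 2 of the P0 apex and 2 of the P0 middle, chosen by region and age as labelled. The spread used in the main tests was estimated from all 12 arrays. All mice were C57BL/6, with no transgene or treatment named in the labels. Cochlear tissue with the organ of Corti and the lateral wall was cut into base, middle and apex at postnatal day 0 (P0) and day 8 (P8), and each region and age was measured on 1 array in each of 2 dissection sets, each made from about 80 temporal bones. Each array therefore holds pooled pieces of many animals with all their cell types, and apex and middle of a set are separate pools of pieces from the same cochleae. The values are the authors' RMA signals on a log2 scale, where a difference of 1 is a doubling. They were set apex minus middle within each set and tested over 16306 genes.

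The cochlea is laid out by frequency, with high tones detected near the base and low tones near the apex. At birth the sensory epithelium no longer divides, while hair cells, nerve endings and the stria vascularis in the lateral wall go on maturing, and hair cells mature from the base towards the apex. The stria secretes the potassium-rich endolymph through its marginal cells, which lie over pigmented intermediate cells and a sheet of basal cells, and the tectorial membrane is a gel of tectorins and related glycoproteins laid down over the hair cells.

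At P0 the clearest differences between neighbouring pieces were in single genes. Zpld1 and Fst were higher in the apex, and Bpifa1, Atp6v0a4, Cyp3a13, Lbp and Ppp1r1b were higher in the middle. Genes of mitosis had a slightly higher signal in the apex, by a median of 0.31 on the log2 scale, with 45 of 47 tested members higher in both dissection sets, although no single member passed the test. Genes of strial marginal and intermediate cells had lower signals in the apex, with medians of −0.42 and −0.35, and none of these members passed the test either. Hair cell genes as a group were close to level between the pieces at P0, with a median of 0.03.

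Markers of cochlear cell types had signal in both pieces. All 16 cochlear markers that were checked had a mean log2 signal above 6 in both P0 pieces, the level above which a gene was tested. Of 19938 genes 16306 exceeded that level in 1 or more groups. Acta1 of muscle and Csf1r of macrophages were above it on all 4 arrays, at no less than 7.33 and 8.39. This check therefore cannot tell cochlea from other tissue, or apex from middle. The hair cell gene Myo7a lay between 8.28 and 8.40 on the 4 arrays, the supporting cell gene Sox2 between 9.31 and 9.55, the melanocyte gene Dct between 10.62 and 11.19, the fibrocyte gene Coch between 10.79 and 11.42 and the tectorial membrane gene Tectb between 11.84 and 12.47. Array medians over the tested genes were between 8.12 and 8.19 on these 4 arrays.

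The P0 apex array of set 1 stood apart from the other 3 in some genes of muscle, bone and cartilage, tissues that surround the cochlea. Acta1, the actin of skeletal muscle, read 9.96 there, against 8.30, 7.33 and 7.47 on the P0 middle array of set 1 and the middle and apex arrays of set 2. Ibsp, bone sialoprotein, read 8.08 against 6.06, 5.65 and 5.96, and Hapln1, a link protein of cartilage matrix, read 8.69 against 6.28, 6.15 and 6.39. Each of these genes had a single high array, and Ibsp and Hapln1 had the widest set 1 gaps of their lists. Some other members were lower in the apex of set 1. Apex minus middle there was −0.16 for Dmp1 and −0.18 for Ifitm5 of bone, and −0.65 for Ucma of cartilage. Summed on the linear scale, the signal of 26 skeletal muscle genes was 1.53 times as high in the apex as in the middle in set 1 and 1.06 times in set 2, with 10 and 0 of the 26 genes at a fold of 1.5 or more. The ratio was 1.27 and 1.06 for 10 bone genes, of which 2 passed that fold in set 1 and 0 in set 2. It was 1.06 and 0.931 for 16 cartilage genes, of which 6 passed that fold in set 1 and 0 in set 2. For red blood cell genes it was 0.953 and 1.08, for macrophage and other leukocyte genes 1.01 and 0.901, and for neuronal genes 0.961 and 1.20. Beyond leaving this array out, the part of these genes in the other differences was not tested. The Hbb-y gene of embryonic red blood cells lay under the level of 6 on all 4 arrays, between 5.67 and 6.00. In this bulk tissue fewer cells of a type and less RNA per cell cannot be told apart.

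With the dissection set as a block, 2 genes passed the test with the higher signal in the apex, 0.0123% of all tested genes, and 5 with the higher signal in the middle, 0.0307%. Passing meant a limma adjusted p under 0.05 over all tested genes and a fold of at least 1.5. Without the block, in the unpaired form that the study's methods name, 0 and 0 genes passed, and 17 and 41 had an unadjusted p under 0.05 with that fold, against 27 and 61 with the block. With each combination of age and set as a block (age-set block), 13 genes passed as higher in the apex (0.0797%) and 35 as higher in the middle (0.215%). Without the P0 apex array of set 1, 0 genes passed as higher in the apex and 1, Bpifa1, as higher in the middle. Without the P0 apex array of set 2, so that the apex side was the array that stood apart, the 4 genes that passed as higher in the apex were Acan, C1qtnf3, Myh8 and Ttn, genes of cartilage and muscle, at 1.57, 1.23, 1.60 and 1.13, and Zpld1 and Fst were not among them. The median difference over all tested genes was 0.01, and the median standard error (SE) of a difference was 0.139 with the set block and 0.205 without it. The 2 within-set differences share no array. Across genes they correlated weakly at P0, at 0.14, and at 0.436 at P8 (a description over genes, which are not independent replicates). A fold of 1.5 or more in the same direction in both sets was seen in 12 genes higher in the apex and 27 higher in the middle. With 2 arrays a group, groups that do not overlap are common: both apex arrays lay above both middle arrays in 1372 genes (8.41%), and both middle arrays above both apex arrays in 1100 (6.75%).

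**Figure D1:**
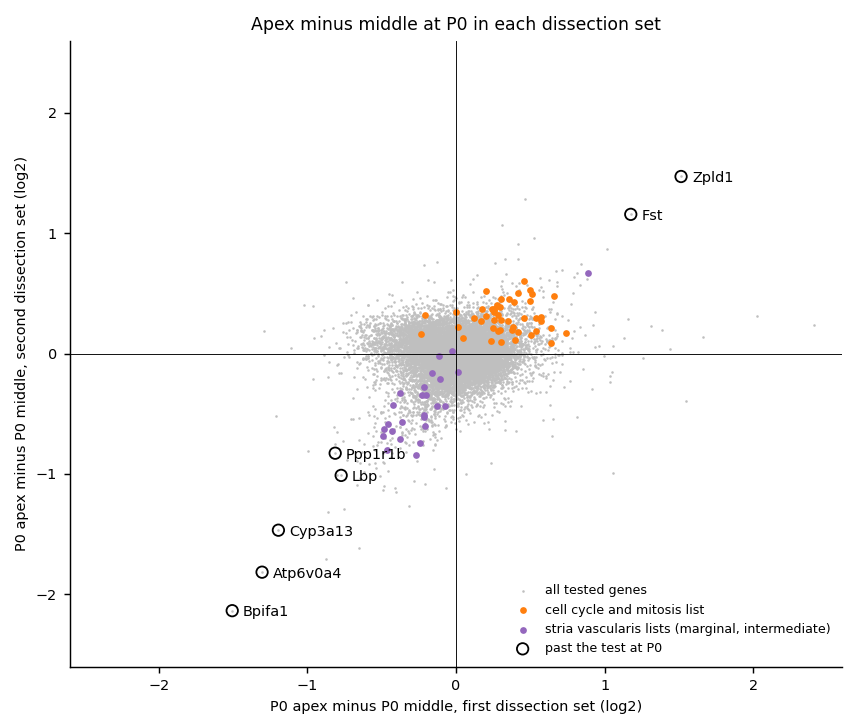
Apex minus middle at P0 in set 1 (x axis, log2) against the same in set 2 (y axis, log2), with 1 point per tested gene, cell cycle genes in orange, genes of the strial marginal and intermediate cell lists in purple and the 7 genes that passed the test circled. The circled genes lie far from the origin in both sets, and the orange points lie mostly above 0 on both axes.

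Zpld1 encodes a membrane protein with a zona pellucida domain, known in fish as a protein of the cupula, the gel over the sensory patches of the semicircular canals. Its signal was 6.83 in the middle and 8.35 in the apex of set 1, and 6.65 and 8.13 in set 2. Both apex arrays lay above both middle arrays, as in 8.41% of all genes, here by nearly the same amount in each set. The apex was higher by 1.49 ± 0.17 (SE, n = 2 arrays per group), a fold of 2.81, with a limma adjusted p of 0.0126. The base arrays read 6.27 and 6.12, so the middle stood 0.55 ± 0.17 above the base. The difference has an adjusted p of 1 without the block and 8.6e-05 with the age-set block, and of 0.105 to 0.188 when any of the 4 arrays was left out.

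Fst encodes follistatin, which binds and blocks activins. It read 9.17 in the middle and 10.34 in the apex of set 1, and 9.22 and 10.38 in set 2. The 2 arrays of a group lay close together, and the groups did not overlap, as in 8.41% of all genes on the apex side. The apex was higher by 1.17 ± 0.14, a fold of 2.24, with an adjusted p of 0.0168 (0.36 without the block, 0.00243 with the age-set block and 0.0596 to 0.278 without any of the 6 P0 arrays). The base read 8.57 and 8.75, which is 0.54 below the middle. The activin gene Inhba, which encodes the subunit that Fst's product binds, read 7.71 in the middle and 7.33 in the apex of set 1 and 8.48 and 7.95 in set 2. Its difference of −0.45 had an adjusted p of 0.926, and its groups overlapped because set 2 was higher in both pieces.

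Bpifa1, with the largest difference of the 5 genes higher in the middle, encodes a secreted protein of the lining of the airways and the middle ear. It read 7.41 in the middle and 5.90 in the apex of set 1, and 7.84 and 5.71 in set 2. The base arrays read 5.73 and 5.81, so among the 3 pieces at P0 the middle piece alone was above the level of 6. Apex minus middle was −1.82 ± 0.15 with an adjusted p of 0.00177, and middle minus base, which shares the middle arrays, was 1.86 ± 0.15 with an adjusted p of 0.00146. The apex mean lay under the level of 6, so the size is a lower bound, and the middle mean stood 1.63 above that level. Without the block the adjusted p was 0.0638, and with the age-set block it was 8.6e-05. In the RefSeq promoter table (GRCm38.p6), the 250 bases before its start, at chr2:154142630-154142879 on the plus strand, hold the TATA box core TATAAA with its first base at −29 (capitals), as do 13% of the 27025 promoters of that table in either strand. It is shown because this gene had the lowest adjusted p of the comparison.
Bpifa1: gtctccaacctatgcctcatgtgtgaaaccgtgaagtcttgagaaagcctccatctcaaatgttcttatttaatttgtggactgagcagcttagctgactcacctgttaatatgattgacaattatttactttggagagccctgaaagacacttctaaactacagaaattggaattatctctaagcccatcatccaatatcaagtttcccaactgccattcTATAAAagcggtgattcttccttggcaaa

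Atp6v0a4 encodes a membrane subunit of the proton pump V-ATPase, and mutations of the human gene cause renal tubular acidosis with hearing loss. It read 7.52 in the middle and 6.22 in the apex of set 1, and 8.38 and 6.57 in set 2. The middle arrays were both higher than the apex arrays, as in 6.75% of all genes, with the larger gap in set 2. Apex minus middle was −1.56 ± 0.16, a fold of 2.95, with an adjusted p of 0.00787 (1 without the block, 0.000128 with the age-set block). The base was higher still, at 7.99 and 8.88, and middle minus base was −0.48. The test was missed without the P0 apex array of set 1 (adjusted p = 0.0890), the P0 apex array of set 2 (0.0922) or the P0 middle array of set 2 (0.136).

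Cyp3a13, a cytochrome P450, read 6.48 in the middle and 5.29 in the apex of set 1 and 7.28 and 5.81 in set 2. The apex arrays were again both lower, and as the apex mean lay under the level of 6, the difference of −1.33 ± 0.13 is a lower bound (adjusted p = 0.00644). The middle mean stood 0.88 above the level. Lbp encodes the serum protein that binds bacterial lipopolysaccharide. It read 10.10 and 10.14 in the middle and 9.33 and 9.13 in the apex, a difference of −0.89 ± 0.12 and a fold of 1.86 (adjusted p = 0.0275). Ppp1r1b, whose product is an inhibitor of protein phosphatase 1 in dopamine-responsive neurons, read 8.72 and 8.88 in the middle and 7.90 and 8.06 in the apex, a difference of −0.82 ± 0.11 and a fold of 1.77 (adjusted p = 0.0273). In both genes the groups did not overlap, as in 6.75% of all genes on the middle side. Without the block the adjusted p of Cyp3a13, Lbp and Ppp1r1b was 1, 0.956 and 0.79. Cyp3a13 missed the test without the P0 apex array of set 1 (adjusted p = 0.0890), that of set 2 (0.0660) or the P0 middle array of set 2 (0.136), and Lbp and Ppp1r1b missed it with any of the 12 arrays left out other than a P8 middle array, at 0.0523 to 0.753 and 0.0543 to 0.753.

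**Figure D2:**
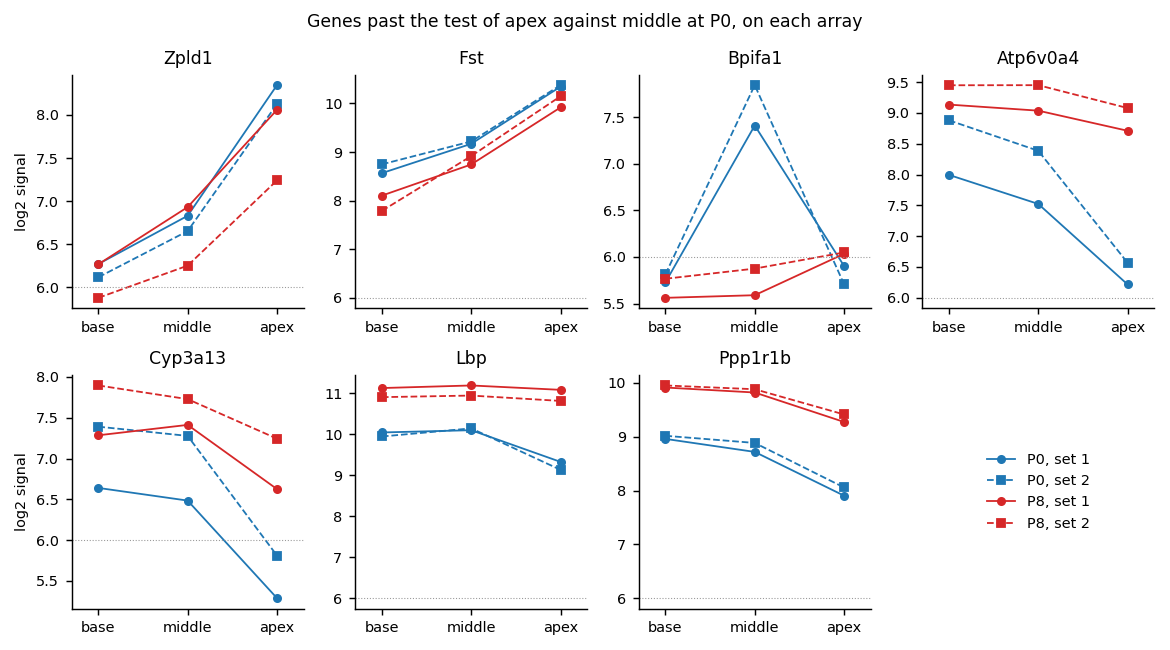
Log2 signal of the 7 genes that passed the test, in the base, middle and apex (x axis), with P0 in blue, P8 in red, set 1 as circles on solid lines, set 2 as squares on dashed lines and the level of 6 dotted. Zpld1 and Fst have their highest signal in the apex at both ages, Bpifa1 stands at 7.41 and 7.84 in the P0 middle, and Atp6v0a4 at 6.22 and 6.57 in the P0 apex.

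Several genes with a difference in the same direction in both sets missed the test with the set as block and passed it with the age-set block. Ndst3, an enzyme that modifies heparan sulfate, read 7.23 and 7.65 in the middle and 8.24 and 8.52 in the apex, a difference of 0.94 ± 0.14 (adjusted p = 0.0856, and 0.00293 with the age-set block). Sema3a, a secreted repellent of growing axons, read 9.29 and 9.14 in the middle and 9.999 and 9.83 in the apex, a difference of 0.70 ± 0.12 (adjusted p = 0.101, and 0.0101 with the age-set block). Hmga2, an architectural chromatin protein of fetal tissues, read 7.91 and 8.08 in the middle and 8.72 and 8.75 in the apex, a difference of 0.74 ± 0.12 (adjusted p = 0.101, and 0.0125 with the age-set block). In these 3 genes both apex arrays lay above both middle arrays, as in 8.41% of all genes, and they were named for their differences within the sets. Rxrg, a retinoid X receptor, had a difference of 0.71 (7.33 and 8.19 in the middle, 8.12 and 8.82 in the apex, adjusted p = 0.101, and 0.0141 with the age-set block), and Adamts6, a secreted metalloproteinase, had 0.68 (8.04 and 8.45 against 8.71 and 9.13, adjusted p = 0.163, and 0.0155). The groups of Rxrg overlapped, since set 2 was higher in both pieces, and those of Adamts6 did not. On the middle side, Pkhd1l1, which in mouse encodes a surface coat protein of hair bundles, read 6.67 and 7.50 in the middle and 5.79 and 5.80 in the apex, a difference of −1.29 (adjusted p = 0.109, and 0.00676 with the age-set block) and a lower bound, with the middle mean 1.09 above the level of 6. Fcrlb, an Fc receptor-like protein, had a difference of −1.09 (8.65 and 8.65 against 7.78 and 7.33, adjusted p = 0.128, and 0.0175 with the age-set block), and Cntn5, a neural adhesion protein, had −0.90 (8.45 and 8.53 against 7.45 and 7.72, adjusted p = 0.306, and 0.0190 with the age-set block). The gap of Pkhd1l1 and Fcrlb was wider in set 2 than in set 1. In all 3 both middle arrays lay above both apex arrays, as in 6.75% of all genes.

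Genes of the cell cycle had a higher signal in the apex in both sets. Of 47 tested genes of mitosis and its checkpoints, 45 were higher in the apex in both sets and 0 higher in the middle in both sets, where all tested genes gave 4617 (28.3%) and 3522 (21.6%). At an unadjusted p under 0.05, 23 of the 47 had the higher signal in the apex and 0 had it in the middle, where all genes gave 243 (1.49%) and 333 (2.04%), and with limma 0 of the 47 passed the test in any of the 3 block settings. The median difference was 0.31, with 0.30 in each set and a range of −0.04 to 0.57. The mean signal of the list was 7.57 in the middle and 7.90 in the apex of set 1, and 7.39 and 7.70 in set 2. Middle minus base had a median of 0.01, but this step had opposite directions in the 2 sets. From base to middle the list's mean signal went from 7.46 to 7.57 in set 1 and from 7.50 to 7.39 in set 2. Only the apex-middle median was alike in the 2 sets, and the part of the muscle and bone signal of set 1 in it was not tested. The P0 apex array of set 1 stood apart in some muscle and bone genes. Without it the median was 0.22 for mitosis, −0.46 for marginal cell genes and −0.47 for intermediate cell genes.

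Ect2, a guanine nucleotide exchange factor that places the cleavage furrow, had the lowest p of the list, 0.0018 before and 0.482 after adjustment. It read 7.93 and 7.80 in the middle and 8.35 and 8.30 in the apex, a difference of 0.46 ± 0.11. Bub1, a kinase of the spindle checkpoint, read 7.31 and 7.75 against 7.97 and 8.23, a difference of 0.57 ± 0.15. Both genes were higher on each apex array than on any middle array, as in 8.41% of all genes. Kif23, a motor of the central spindle, read 8.28 and 7.85 against 8.79 and 8.35 (0.51 ± 0.13), and Bub1b, a checkpoint kinase, 7.83 and 7.24 against 8.32 and 7.68 (0.47 ± 0.13). For Kif23 the groups did not overlap, and for Bub1b the middle of set 1 was above the apex of set 2. These 4 genes, the list's lowest by p, are shown with the 250 bases before their first listed RefSeq start, where capitals mark the CCAAT box (ATTGG where it lies on the opposite strand) and TTTGAA, the core of the cell cycle homology region. Their places are chr3:27153879-27154128 for Ect2, chr2:127831860-127832109 for Bub1 and chr9:61946800-61947049 for Kif23, all on the minus strand, and chr2:118597961-118598210 on the plus strand for Bub1b.
Ect2: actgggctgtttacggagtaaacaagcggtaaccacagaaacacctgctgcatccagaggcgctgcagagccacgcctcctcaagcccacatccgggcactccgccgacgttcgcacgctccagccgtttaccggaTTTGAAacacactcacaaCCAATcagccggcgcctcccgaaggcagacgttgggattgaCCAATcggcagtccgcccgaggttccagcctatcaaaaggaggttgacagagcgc
Bub1: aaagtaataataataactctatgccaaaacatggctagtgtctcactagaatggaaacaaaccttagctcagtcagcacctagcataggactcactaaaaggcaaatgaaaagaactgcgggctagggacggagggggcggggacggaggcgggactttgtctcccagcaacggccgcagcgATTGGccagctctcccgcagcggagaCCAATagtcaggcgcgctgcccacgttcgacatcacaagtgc
Kif23: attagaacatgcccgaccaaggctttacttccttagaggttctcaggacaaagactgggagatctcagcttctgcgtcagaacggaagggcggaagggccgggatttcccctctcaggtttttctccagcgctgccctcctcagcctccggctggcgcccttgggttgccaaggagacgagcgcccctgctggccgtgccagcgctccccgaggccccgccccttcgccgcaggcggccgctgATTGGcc
Bub1b: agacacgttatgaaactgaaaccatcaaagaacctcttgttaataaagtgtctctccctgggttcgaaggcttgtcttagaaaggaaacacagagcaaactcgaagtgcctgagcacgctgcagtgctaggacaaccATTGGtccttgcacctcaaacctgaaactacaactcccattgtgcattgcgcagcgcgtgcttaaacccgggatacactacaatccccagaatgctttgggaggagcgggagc

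CCAAT in either strand was in 28 of the 40 promoters of the mitosis list that the table holds (70%), in 17 of 27 of the DNA replication list (63%) and in 9314 of all 27025 (34.5%). The strial intermediate cell and melanocyte list, with lower signals in the apex, had CCAAT in 7 of 12 promoters (58.3%) and TTTGAA in 0. TTTGAA was in 11 of the 40 (27.5%), 3 of the 27 (11.1%) and 4398 of all (16.3%), and TATAAA in 2 of the 40 (5%). Letters of this kind describe a window and show no binding. The DNA replication list itself had 30 of 31 tested members higher in the apex in both sets, against 28.3% of all genes. Its median difference was 0.21 (0.22 and 0.17 by set). An unadjusted p under 0.05 was seen in 3 members, against 1.49% of all genes in the apex and 2.04% in the middle. Uhrf1, which carries DNA methylation through replication, had a difference of 0.42 (7.73 and 7.26 in the middle, 8.04 and 7.81 in the apex, adjusted p = 0.798). Cdc6, which loads the replicative helicase, had a difference of 0.33, and the helicase subunit Mcm6 had 0.37. The 9 tested cyclin-dependent kinase inhibitors and D cyclins had a median of −0.05, with either sign when any of the 4 P0 apex and middle arrays was left out (−0.11 to 0.07). Of 9 tested fetal growth and let-7 target genes 5 were higher in the apex in both sets and 0 in the middle, against 28.3% and 21.6% of all genes. Their median was 0.13 (0.05 to 0.22 with 1 of these arrays left out), and the list was led by Hmga2. Lin28b, an RNA-binding protein that blocks let-7 maturation, had a difference of 0.40.

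**Figure D3:**
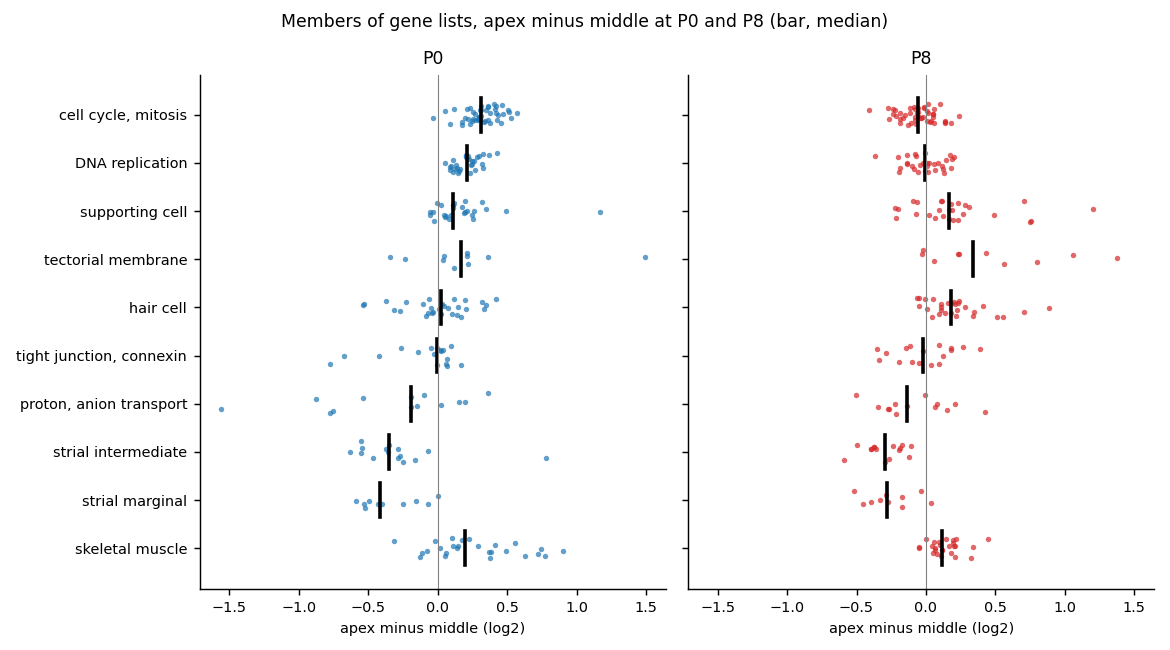
Apex minus middle (x axis, log2) of each tested member of 10 gene lists (y axis) at P0 and at P8, with a black bar at the list's median. At P0 the mitosis list lies above 0 with a median of 0.31 and the marginal cell list below it with a median of −0.42, and at P8 their medians are −0.06 and −0.28.

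Genes of the stria vascularis had lower signals in the apex. Of 10 tested marginal cell genes, 9 were higher in the middle in both sets and 0 higher in the apex, against 21.6% and 28.3% of all genes, and the median difference was −0.42 (−0.23 and −0.51 by set). At an unadjusted p under 0.05, 6 were higher in the middle, against 2.04% of all genes. Kcne1, a subunit of the potassium channel through which endolymph is secreted, read 8.70 in the middle and 8.20 in the apex of set 1 and 9.99 and 9.30 in set 2, a difference of −0.59 ± 0.12 (adjusted p = 0.214, and 0.0498 with the age-set block). Esrrb, a nuclear receptor of marginal cells, read 9.49 and 9.59 in the middle and 9.07 and 9.16 in the apex (−0.43, adjusted p = 0.522). Kcne1 overlapped between the groups because set 2 was higher in both pieces. Esrrb did not overlap, as in 6.75% of all genes on the middle side. Bsnd, the barttin subunit of chloride channels, had a difference of −0.49 and Atp1b2, a sodium pump subunit, had −0.52. Middle minus base had a median of 0.10 for this list.

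Of 15 intermediate cell and melanocyte genes, 13 were higher in the middle in both sets and 1 in the apex, against 21.6% and 28.3% of all genes. Their median was −0.35 (−0.22 and −0.44 by set). At an unadjusted p under 0.05, 9 were higher in the middle and 1 in the apex, against 2.04% and 1.49% of all genes. Tyr, the first enzyme of melanin synthesis, read 7.89 and 8.22 in the middle and 7.43 and 7.41 in the apex (−0.63 ± 0.15, adjusted p = 0.438). Dct, a later enzyme of that pathway, read 11.04 and 11.19 against 10.68 and 10.62 (−0.47 ± 0.11, adjusted p = 0.451), and Slc45a2, a melanosome transporter, had a difference of −0.55. In Tyr and Dct the groups did not overlap, as in 6.75% of all genes on the middle side. The 1 member higher in the apex was Tyrp1, also an enzyme of melanin synthesis, at 5.70 and 6.02 in the middle and 6.59 and 6.69 in the apex. Its difference of 0.78 ± 0.12 had an adjusted p of 0.0961 (0.0128 with the age-set block), and as the middle mean lay under the level of 6, it is a lower bound, with the apex mean 0.64 above that level.

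**Figure D4:**
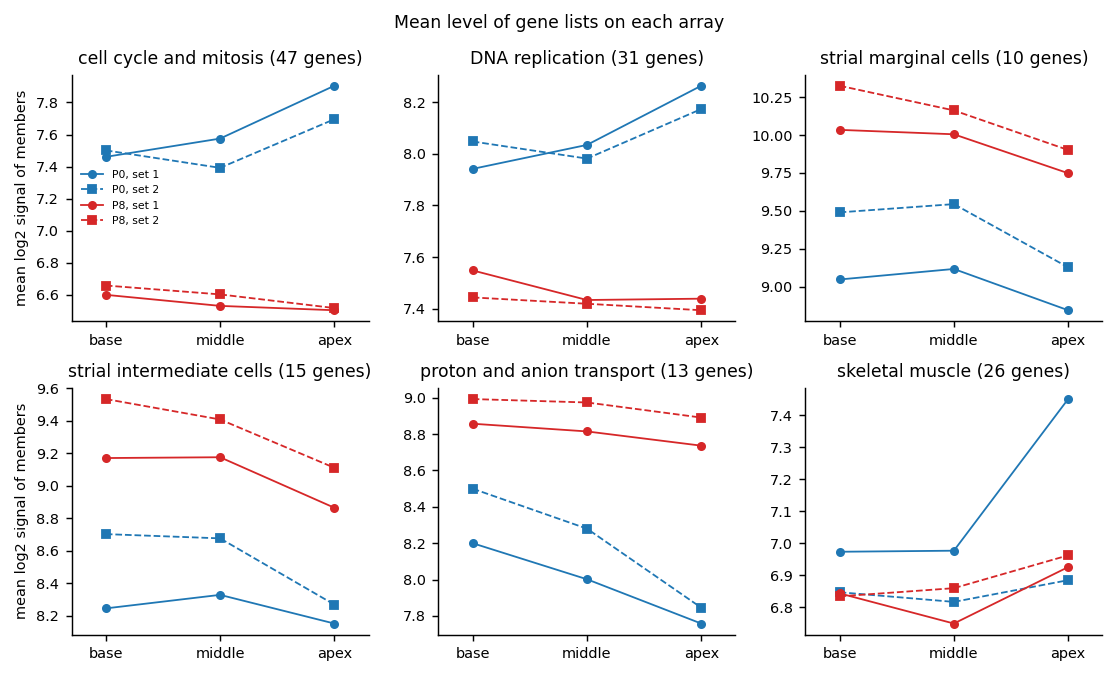
Mean log2 signal of the tested members of 6 gene lists (y axis) on each of the 12 arrays by region (x axis), with P0 in blue and P8 in red and the 2 dissection sets as circles and squares. The mitosis list stands at 7.90 and 7.70 in the P0 apex against 7.57 and 7.39 in the P0 middle.

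The outer sulcus and proton or anion transport list, which holds Atp6v0a4, had 9 of 13 tested members higher in the middle in both sets and 3 in the apex. For this and the other lists of this paragraph, all tested genes gave 21.6% in the middle and 28.3% in the apex. The median was −0.19 (−0.25 to −0.11 when any of the 4 P0 apex and middle arrays was left out). Beside Atp6v0a4, which passed, Wnk4, a kinase that controls ion cotransporters, read 8.72 and 9.01 in the middle and 8.05 and 7.92 in the apex (−0.88 ± 0.15, adjusted p = 0.101, and 0.0132 with the age-set block). Atp6v1c2, a further V-ATPase subunit, read 8.08 and 8.24 against 7.41 and 7.35 (−0.78, adjusted p = 0.243, and 0.0101 with the age-set block), and Car14, a carbonic anhydrase, 9.39 and 9.63 against 9.05 and 8.89 (−0.54, adjusted p = 0.438). With the age-set block 4 of the 13 members passed as higher in the middle, against 0.215% of all genes. The middle arrays were higher in each set for Wnk4, Atp6v1c2 and Car14. Among 17 tested tight junction, basal cell and connexin genes, 6 were higher in the middle in both sets and 3 in the apex, and the list's median was 0.00, which was −0.16 without the P0 apex array of set 1 and 0.06 without that of set 2. Cldn11, the claudin that seals the basal cell sheet, read 10.55 and 11.11 in the middle and 10.01 and 10.31 in the apex (−0.67 ± 0.11, adjusted p = 0.101, and 0.0160 with the age-set block). Gjb6, a connexin of supporting cells and the lateral wall, read 9.64 and 9.95 against 8.99 and 9.04 (−0.78 ± 0.18, adjusted p = 0.438, and 0.0154 with the age-set block), and its partner Gjb2 11.76 and 11.99 against 11.43 and 11.48 (−0.42, adjusted p = 0.553). For all 3 genes the apex was lower in each set. Spiral ligament fibrocyte genes had a median of −0.08 (−0.12 to 0.01 with 1 of these arrays left out), with 7 of 13 higher in the middle in both sets and 2 in the apex. Ucma, a matrix protein of cartilage cells, gave the widest gap of that list, at −1.13 (8.64 and 8.75 against 7.99 and 7.14, adjusted p = 0.333). Of 17 hypoxia and glycolysis genes, 12 were higher in the middle in both sets and 3 in the apex, with a median of −0.10, which was −0.19 without the P0 apex array of set 1 and −0.01 without that of set 2.

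In the sensory epithelium the lists were mixed at P0. In both sets, 13 of 29 hair cell genes had the higher signal in the apex and 10 had it in the middle, against 28.3% and 21.6% of all genes. At an unadjusted p under 0.05 there were 2 and 2, against 1.49% and 2.04% of all genes. The list's median of 0.03 took either sign when any of the 4 P0 apex and middle arrays was left out (−0.04 to 0.04). Atoh1, the transcription factor that starts hair cell differentiation, read 7.86 and 7.89 in the middle and 8.21 and 8.39 in the apex, a difference of 0.42 ± 0.14 (adjusted p = 0.973). Otof, needed for transmitter release from hair cells, read 8.17 and 8.14 against 7.80 and 7.75 (−0.38, adjusted p = 0.976). Neither gene overlapped between the groups, as in 8.41% of all genes on the apex side and 6.75% on the middle side. They stood in opposite directions. Tmc2, a subunit of the early mechanotransduction channel, had a difference of −0.54 (6.37 and 6.99 against 6.00 and 6.28). Among 23 hair bundle and Usher genes, the apex was higher for 7 and the middle for 9 in both sets, against 28.3% and 21.6% of all genes. Their median was −0.02 (−0.02 to 0.02 with 1 of these arrays left out). Pcdh15, a protein of the tip link, read 7.77 and 8.36 in the middle and 8.44 and 8.92 in the apex, a difference of 0.62 (adjusted p = 0.16, and 0.0345 with the age-set block), and Myo3a, a motor at stereocilia tips, read 7.48 and 8.02 against 7.19 and 7.29 (−0.51, adjusted p = 0.894). Pcdh15 was higher and Myo3a lower in the apex in both sets.

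The list of supporting cells and the prosensory region had 27 tested genes, 17 of them with the higher signal in the apex in both sets and 1 with the higher signal in the middle. For this and the other lists of this paragraph, all tested genes gave 28.3% in the apex and 21.6% in the middle. The median was 0.11 (0.07 to 0.24 when any of the 4 P0 apex and middle arrays was left out). The list had 1 member, Fst, that passed, against 0.0123% of all genes in the apex. Emx2, a homeobox factor of the prosensory region, had a difference of 0.49 (6.99 and 7.78 in the middle, 7.62 and 8.12 in the apex), and Fgf20, a growth factor of that region, had 0.32. Of 24 Notch pathway genes 12 were higher in the apex in both sets and 1 in the middle. Their median was 0.07, and was 0.04 without the P0 apex array of set 1 and 0.13 without that of set 2. An unadjusted p under 0.05 was seen in 1 member, against 1.49% of all genes in the apex and 2.04% in the middle. The list had 0 members past the limma test. Its member Hes6, a transcription factor of differentiating hair cells, had a difference of 0.35. Isl1, a homeobox factor of the sensory epithelium and its neurons, read 10.31 and 10.06 in the middle and 10.55 and 10.31 in the apex (0.24, adjusted p = 1), against 0.78 for middle minus base. Of the 10 tectorial membrane and acellular gel genes, 6 were higher in the apex in both sets and 1 in the middle, with a median of 0.17 (0.12 to 0.17 with 1 of these arrays left out), and Zpld1 passed. Otogl, an otogelin-like gel protein, had a difference of 0.36 and Tectb, a tectorin, had 0.21 ± 0.14, where middle minus base was 0.56 and 0.93. Otoa, which anchors the tectorial membrane to the spiral limbus, had −0.34 (10.26 and 10.51 in the middle, 9.999 and 10.07 in the apex). For Isl1 and Tectb the step from base to middle was thus wider in value than the step from middle to apex.

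Neuronal genes had no shared direction in the 2 sets. Their median was −0.09 in set 1 and 0.21 in set 2, and 9 of 29 were higher in the apex in both sets against 7 in the middle. Both counts lay close to what all genes gave, 28.3% and 21.6%. Nefm, a neurofilament subunit, read 9.06 and 8.10 in the middle and 9.58 and 9.06 in the apex (0.74 ± 0.28, adjusted p = 1), with groups that just overlapped. Of 16 Schwann cell and myelin genes 3 were higher in the apex in both sets and 6 in the middle, against 28.3% and 21.6% of all genes. Their median was 0.00. Those with the lowest p were S100b, a calcium-binding protein of glia, at −0.72 (9.70 and 9.33 in the middle, 9.24 and 8.35 in the apex, adjusted p = 0.53) and Mal, a myelin lipid-raft protein, at −0.59 (8.81 and 8.92 against 8.33 and 8.22, adjusted p = 0.553). Of 44 genes of BMP, activin and TGF-beta signalling, 19 were higher in the apex in both sets and 10 in the middle. All genes gave 28.3% and 21.6%, so the middle count was near the share of all genes. Fst alone passed, against 0.0123% of all genes in the apex. Of 18 genes of retinoic acid metabolism 6 were higher in the apex in both sets and 4 in the middle, near the 28.3% and 21.6% of all genes. The list had 0 members past the limma test. At an unadjusted p under 0.05 there were 2 and 3, against 1.49% and 2.04% of all genes. Among enzymes of retinoic acid synthesis, Aldh1a2 had a difference of −0.43 (limma adjusted p = 0.751) and was lower in the apex in both sets. Aldh1a1 at 0.09 ± 0.17 and Aldh1a3 at 0.13 ± 0.14 each had opposite signs in the 2 sets. Rdh10 had 0.23 ± 0.11.

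At P8, apex minus middle was tested in the same fit. The difference itself is between P8 arrays, but its spread and set effect were estimated over all 12 arrays, P0 included. The P8 test is thus not independent of the P0 test. The test was passed by 2 genes with the higher signal in the apex (0.0123%) and by 0 with the higher signal in the middle. At an unadjusted p under 0.05 with the fold there were 48 and 28, without the block 0 and 0 passed, and with the age-set block 28 and 7. Fst was 1 of the 2. It read 8.74 and 8.92 in the middle and 9.92 and 10.15 in the apex, with both apex arrays above both middle arrays as in 2100 genes (12.9%), and the difference was 1.20 ± 0.14 (adjusted p = 0.0316, 0.285 without the block, and 0.0614 to 0.321 without any P0 array or any of the 4 P8 middle and apex arrays). The change of its difference from P0 to P8 was 0.04 ± 0.20. The other was Tecta, the main tectorin of the tectorial membrane. At P8 it read 9.92 and 10.14 in the middle and 11.26 and 11.55 in the apex, a difference of 1.38 ± 0.11 (adjusted p = 0.00176, 0.14 without the block, and 0.0503 without the P8 apex array of set 2). At P0 it read 12.30 and 12.47 in the middle and 12.38 and 12.46 in the apex, a difference of 0.04 ± 0.11, and the P0 groups overlapped. Zpld1 had a P8 difference of 1.06 ± 0.17 with an adjusted p of 0.135.

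The change of the difference with age was tested in the same fit, and 2 genes passed (0.0123%), both with a higher apex side at P8. Bpifa1, higher in the middle at P0, read 5.59 and 5.88 in the middle and 6.03 and 6.05 in the apex at P8, near or under the level of 6 everywhere, so the P8 difference has no clear sign, and the fitted difference changed by 2.13 ± 0.21 (adjusted p = 0.0118). Tecta changed by 1.34 ± 0.16 (adjusted p = 0.0342). Without the block neither passed, with adjusted p of 0.294 for Bpifa1 and 1 for Tecta. Leaving out an array ended the call of Bpifa1 for 7 of the 12 arrays, the base arrays of both ages and the P0 middle of set 2 and the P8 middle and apex of set 1 (0.0634 to 0.0826), and that of Tecta for each of the 12 (0.107 to 0.377). Without the block, 66 genes had an unadjusted p under 0.05 with a higher apex side at P8 and 33 with a lower one, against 210 and 150 with the block. Atp6v0a4 read 9.04 and 9.45 in the middle and 8.71 and 9.08 in the apex at P8, and its change of 1.21 ± 0.23 had an adjusted p of 0.471. Bpifb3, a relative of Bpifa1, read 9.45 and 9.60 in the middle and 8.91 and 8.69 in the apex at P0 and had a difference of −0.73, against 0.66 at P8, and its change of 1.39 also had an adjusted p of 0.471. Tyrp1 had a change of −1.05 and Adh1, an alcohol dehydrogenase, of 1.26, with the same adjusted p.

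The lists differed in their values at P8. The mitosis list had a median of −0.06, with 7 of 47 higher in the apex in both sets and 22 in the middle, where all genes gave 4828 (29.6%) and 5449 (33.4%). Its mean signal was lower at P8 throughout, between 6.50 and 6.66. Ect2, Bub1 and Kif23 had P8 differences of 0.01, −0.22 and −0.27. Marginal cell genes had a P8 median of −0.28, with 9 of 10 higher in the middle in both sets, and intermediate cell genes −0.30, with 15 of 15. Hair cell genes had a P8 median of 0.18, with 21 of 29 higher in the apex in both sets and 1 in the middle. The change of a list with age was not tested.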

How the data were processed

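RNA from cochlear pieces of C57BL/6 mice was hybridised to Affymetrix Mouse Gene 1.0 ST arrays. The authors deposited RMA-normalized log2 signals for 35556 array entries, and the RMA software version, and whether 1 run covered both dissection sets, are not given in the sources used here. RMA equalises the distribution of signals across arrays and compresses low signals, so small folds of weak genes are understated. Of the entries, 21789 had 1 gene symbol, 1621 several and 12146 none. Each of 19938 genes was read from its entry with the highest mean over the 12 arrays, and the 16306 genes whose mean exceeded 6 in 1 or more of the 6 groups entered the test. Of the tested genes, 16253 matched RefSeq by Entrez identifier. The 9497 entries above that level without 1 symbol were fitted separately, and 0 passed in each direction.

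The main fit was limma 3.58.1 (lmFit and eBayes, R 4.3.3) with 6 group means and the dissection set as block. Within an age and set the 3 regions are separate pools of pieces from shared cochleae, as the study's methods describe. The set block gives P0 and P8 of a set a shared effect, although their animals differ. The age-set block follows the shared cochleae more closely. Arrays of the same set deviated from their group means together (correlations of 0.544 to 0.916 over 15 pairs of groups, 0.818 for P0 apex and middle). The 2 arrays of a group are 2 pools, and 2 per group limit the precision. The threshold was an adjusted p (Benjamini-Hochberg) under 0.05 together with a fold of at least 1.5, with no fold threshold for the change with age. Where the lower group mean was under 6, the difference was read as a lower bound. All p-values are two-sided, and the code was tested on simulated data. Alternatives were the fit without the block (the study's unpaired design), with age and set together as block, with fewer arrays, other level filters, scalings, fold thresholds, array weights, an intensity trend, the mean over a gene's entries, the methods' t-test and leaving out each array.

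The comparison and the 39 gene lists were chosen with earlier results of these data known. Named genes were those that passed in each direction, the genes with the largest smaller-of-2 within-set difference up to 10 a direction, up to 4 members of a list with the lowest p, the genes that the paper's text names for this axis at P0 (some are not reported here), up to 10 with the lowest p for the change and up to 6 that passed at P8. Acan, C1qtnf3, Myh8, Hapln1, Inhba, Aldh1a1, Aldh1a3, Rdh10 and the tissue markers were named beside these, after their values were seen, and 42 genes are in more than 1 list. Lists are described by counts and medians with no set test. Promoter sequences are from RefSeq (GRCm38.p6).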

Additional observations from a re-analysis of the deposited data

Results flagged for a closer look

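The apex-middle difference of Bpifa1 changed with age by 2.13 ± 0.21 on the log2 scale, from −1.82 at P0 to 0.31 at P8, which is singled out because the test of the change itself passed in limma (adjusted p = 0.0118, and 0.294 without the dissection set as block). Its P8 means and its P0 apex mean were near or under the level of 6, so the size of the change has no firm bound, and only the P0 middle mean stood clearly above that level, by 1.63. The difference of Tecta changed by 1.34 ± 0.16, from 0.04 at P0 to 1.38 at P8, by the same test (adjusted p = 0.0342, and 1 without the block).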

How the results depend on the processing

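The calls rest on the pairing by dissection set and on 2 arrays per group. Beside the main setting 28 others were run, 12 of them leaving out 1 array. At P0, 2 genes passed as higher in the apex and 5 as higher in the middle with the set as replicate block. These counts were 0 and 0 without the block, 13 and 35 with age and set together as block, 11 and 25 on the 6 P0 arrays and 9 and 21 by the methods' t-test unadjusted, which gave 0 and 0 after Benjamini-Hochberg adjustment. A fold of at least 2 left 3 in the middle, the 4 P0 apex and middle arrays alone gave 8 in the middle, and repeating quantile normalization gave 1 in the apex. Leaving out 1 array gave 0 to 4 and 1 to 5. At P8, where 2 and 0 passed, no block gave 0 in the apex, the age-set block 28 and 7, and leaving out 1 array 0 to 2 and 0 to 1. For the change with age, where 2 passed with a higher and 0 with a lower apex side at P8, no block gave 0 and the age-set block 4 of the former, and leaving out 1 array gave 0 to 1 of each. The cause of these shifts was not tested.

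All 7 P0 calls were lost without the block and in the t-test after adjustment, and Bpifa1 kept its call in the other settings. Zpld1 also lost it after repeated quantile normalization (adjusted p = 0.0687) and without any of the 4 P0 apex and middle arrays (0.105 to 0.188). Fst lost it without any of the 6 P0 arrays (0.0596 to 0.278). Atp6v0a4 and Cyp3a13 lost it in the unadjusted t-test and without the P0 apex array of either set or the P0 middle array of set 2. Lbp and Ppp1r1b lost it at a fold of at least 2, and in 13 and 12 of 26 fits. At P8, Tecta lost its call without the block and without the P8 apex array of set 2 (adjusted p = 0.0503). Of 83 named differences, 2 turned sign without the P0 apex array of set 1, Tecta at P0 to −0.0037 and Ttn to −0.0077, and without the P0 apex array of set 2 these were 0.0756 and 1.13.

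An arm left with 1 array is assumed to vary like the others. List medians kept their sign for mitosis (0.22 to 0.43 with 1 array left out), DNA replication (0.17 to 0.25), marginal cells (−0.49 to −0.30) and intermediate cells (−0.47 to −0.25). Signals near the level of 6 limit what can be read of Bpifa1, Cyp3a13, Pkhd1l1 and Tyrp1.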
